A study of Mus musculus with 6 samples.

Results

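Mouse genes for secreted or surface proteins, Msln, Tgfbi, Igfbp7, Serping1 and Sulf1, were described in embryonic stem cells before and after deletion of Dicer, the enzyme that makes mature microRNAs from their hairpin precursors. They were picked from the largest rises after tamoxifen, so their size is a description and was not tested. The members were 5 of 19938 genes, each read by 1 probe set of an Affymetrix array with 35556 probe sets. The untreated group held 3 arrays of embryonic stem cells labelled Dicer Fx/Fx, which carry floxed Dicer alleles and were not deleted. The tamoxifen group held 3 arrays of Dicer Fx/Fx cells labelled as having lost Dicer, given tamoxifen for 3 days and collected 2 days later, on day 5. All arrays thus came from Dicer Fx/Fx cells, and no day was recorded for the untreated group. The recombinase that tamoxifen acts on, the number of clones, and whether the numbered replicates were separate cultures are not given in the labels. P-values thus rest on the scatter of these samples alone, part or all of which may be technical. The protocols also name wild-type E14 cells, which were not analysed here, so effects of tamoxifen and of Dicer loss cannot be told apart.

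The 5 proteins act outside the cell or at its surface. Mesothelin, the product of Msln, is held to the outer membrane by a glycosylphosphatidylinositol (GPI) anchor and binds the mucin MUC16. TGFBI is a matrix protein with fasciclin domains that was named for its induction by TGF-beta and binds collagens and integrins. IGFBP7 is a secreted protein that binds insulin-like growth factors weakly and also binds heparin. C1 inhibitor, the product of Serping1, is a serpin that blocks the first proteases of the complement cascade and proteases of the contact system. SULF1 is a secreted sulfatase that removes sulfate groups from heparan sulfate chains, which changes how those chains hold growth factors.

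The arrays were first checked against their labels by the targeted gene and by cell type markers. Dicer1 had values of 11.43, 11.36 and 11.48 on the untreated arrays and 9.53, 9.48 and 9.69 on the tamoxifen arrays (log2 values), a log2 change of -1.85 ± 0.07 (standard error, SE) with a limma adjusted p of 3.61e-05. Over all genes, r was 0.996 to 0.998 within a group and 0.993 to 0.996 between groups. All 12 embryonic stem cell markers, among them Pou5f1, Sox2 and Nanog, were measured, and untreated means ran from 9.97 to 13.96 on the log2 scale. Limma called 0 of them, with unadjusted p-values under 0.05 for 1 that was higher and 4 that were lower, against 24.5% of all 19938 genes. With the replicate number as a block 3 of the 12 fell, against 17.4% of all genes called in that fit. A fall in the number of cells with a transcript and a fall in its RNA per cell cannot be told apart in such bulk samples, and the same holds for rises.

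Of the 5 genes, only Tgfbi and Igfbp7 had a promoter in the RefSeq table for GRCm38.p6, and both are shown for that reason. Each line gives the 250 bases before the annotated start, with GGGCGG or its complement CCGCCC, the GC box, in capitals.
Tgfbi (chr13:56609336-56609585, plus strand): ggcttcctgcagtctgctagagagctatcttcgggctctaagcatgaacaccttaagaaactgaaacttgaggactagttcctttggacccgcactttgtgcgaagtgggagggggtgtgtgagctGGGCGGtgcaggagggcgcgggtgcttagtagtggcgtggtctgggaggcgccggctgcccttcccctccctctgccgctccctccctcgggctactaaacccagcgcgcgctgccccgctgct
Igfbp7 (chr5:77408046-77408295, minus strand): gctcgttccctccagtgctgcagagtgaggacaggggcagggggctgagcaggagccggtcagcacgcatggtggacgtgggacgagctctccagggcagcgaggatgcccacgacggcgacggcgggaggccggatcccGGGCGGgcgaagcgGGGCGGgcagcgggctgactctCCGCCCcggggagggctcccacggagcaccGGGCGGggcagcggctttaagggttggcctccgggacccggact
The Tgfbi window held 1 GC box and 15 CpG dinucleotides, and the Igfbp7 window held 4 GC boxes and 26 CpG. A GC box on either strand was present in 32.7% of the 32851 windows of this length in the table, and the median window had 6 CpG. The window of Igfbp7 had more CpG than 90.4% of windows, and that of Tgfbi more than 72.7%. Other short motifs were searched on both strands and had no match in either window. These were the TATA box TATAAA, present in 12.4% of all windows, and the CCAAT box, present in 33.8%. The AP-1 motif TGACTCA was present in 4.46% of windows and the E-box CAGGTG in 17.2%. The TEAD motif GGAATG stood in 12.6% of windows and the SMAD palindrome GTCTAGAC in 0.167%. None of these motifs contains another.

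All 5 genes had every tamoxifen array above every untreated array. This pattern was seen in 14.5% of the 19938 genes, and it follows here from the way the genes were picked. Their log2 changes ran from 1.18 to 1.81, and 27 genes, 0.135% of those measured, had a value of at least 1. By size of change they ranked 2, 3, 5, 9 and 10. Sulf1, at rank 10 with 1.18 ± 0.17 (log2, SE), stood just before Dusp27, which was not picked, at rank 11 with 1.17 ± 0.17. Genes of higher rank were also left out, among them Hhip at rank 1 (1.81 ± 0.24) and Lefty1 at rank 6 (1.23 ± 0.14). All 5 also passed a filter that left out the dimmest 40% of genes.

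Msln had the largest difference of the 5. Its log2 values were 7.64, 7.65 and 7.67 on untreated replicates 1 to 3 and 9.25, 9.62 and 9.51 on tamoxifen replicates 1 to 3. The untreated arrays lay within 0.04 of each other, and the tamoxifen arrays spread over 0.37 with replicate 1 lowest. The group means were 7.66 ± 0.02 and 9.46 ± 0.19 (SD, n = 3). The difference was 1.81 ± 0.09 (log2, SE), or 3.5-fold. In the replicate pairs it was 1.61, 1.97 and 1.84, and the lowest tamoxifen array stood 1.58 above the highest untreated array.

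Tgfbi, the matrix protein, had log2 values of 9.90, 9.81 and 9.63 without and 11.3, 11.51 and 11.01 with tamoxifen. Replicate 3 was the lowest array of both groups, and the means were 9.78 ± 0.14 and 11.27 ± 0.25 (SD, n = 3). The difference was 1.49 ± 0.13 (log2, SE), or 2.81-fold, and 1.39, 1.70 and 1.37 in the pairs. A gap of 1.10 separated the groups.

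Igfbp7 stood at 8.02, 8.32 and 8.12 on the untreated arrays and at 9.43, 9.48 and 9.28 on the tamoxifen arrays (log2 values). Here the untreated arrays spread more, over 0.30 against 0.20, and the means were 8.16 ± 0.15 and 9.40 ± 0.10 (SD, n = 3). The difference came to 1.24 ± 0.09 (log2, SE), or 2.37-fold. It was 1.41 in pair 1, against 1.15 and 1.16 in the other two, and untreated replicate 1 was the lowest array of its group.

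Serping1 had log2 values of 9.69, 9.79 and 9.76 in untreated cells and 10.77, 11.10 and 10.92 after tamoxifen. In both groups replicate 1 was lowest and replicate 2 highest. Means of 9.74 ± 0.05 and 10.93 ± 0.16 (SD, n = 3) gave a difference of 1.18 ± 0.09 (log2, SE), or 2.27-fold, and the pairs gave 1.08, 1.31 and 1.16.

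Sulf1 was the most variable of the 5. Its untreated log2 values of 9.05, 9.67 and 9.53 spread over 0.63, and its tamoxifen values of 10.33, 10.80 and 10.67 over 0.47. Replicate 1 was low in both groups, so the pairs, at 1.28, 1.12 and 1.13, differed far less than the arrays did. The means were 9.42 ± 0.33 and 10.60 ± 0.24 (SD, n = 3), the difference 1.18 ± 0.17 (log2, SE), or 2.27-fold, and the gap between the groups 0.66, the narrowest of the 5.

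**Figure D1:**
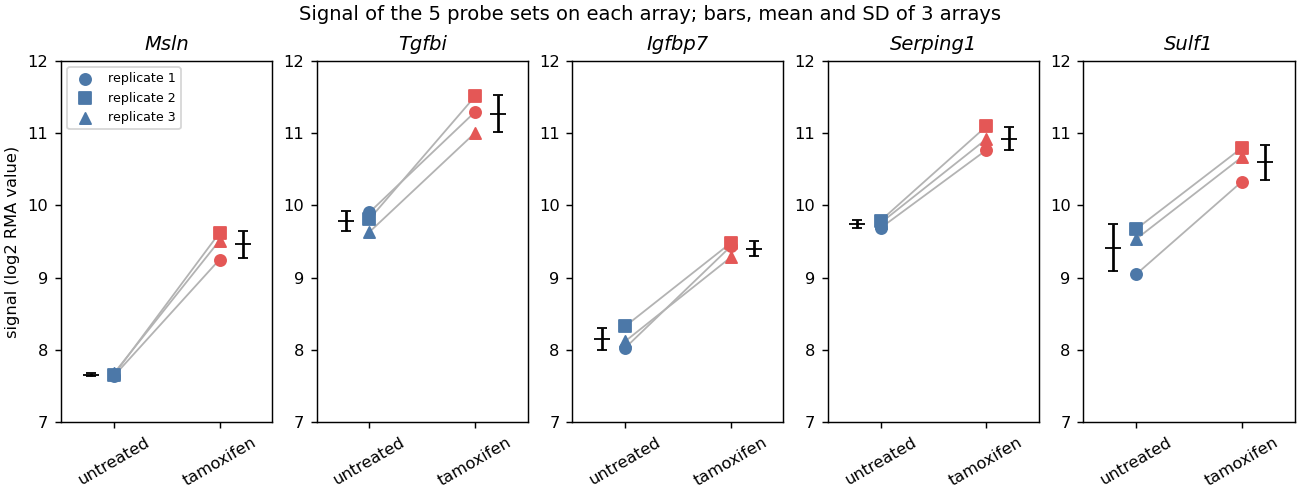
Log2 RMA signal of the 5 genes on each array (y axis) by group (x axis); marker shapes give the replicate number, grey lines join equal numbers, and black bars show the mean and SD of 3 arrays. Every tamoxifen point lies above every untreated point, with the narrowest gap, 0.66, in Sulf1 and tight untreated points, 0.04 apart, in Msln.

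How the genes varied within a group is a measure that the choice of genes did not use. Deviations of the 6 arrays from their group means went together most closely for Msln and Serping1 (Pearson r = 0.93), followed by Serping1 and Sulf1 (0.78) and by Msln and Sulf1 (0.64). Among the tamoxifen arrays replicate 1 was lowest and replicate 2 highest for these 3 genes, at -0.21 and 0.16 for Msln, -0.16 and 0.17 for Serping1 and -0.27 and 0.20 for Sulf1. Untreated replicates 1 and 2 lay further out for Sulf1, at -0.37 and 0.26. Tamoxifen replicate 2 was also the highest tamoxifen array for Tgfbi (0.24) and Igfbp7 (0.08). Tgfbi differed in its lowest arrays: tamoxifen replicate 3 lay at -0.27 and untreated replicate 3 at -0.15, and its r was -0.14 with Sulf1 and 0.13 with Msln. Igfbp7 had r = 0.01 with Msln and 0.57 with Sulf1. Of the 10 gene pairs, 9 had a positive r and the median was 0.40. These correlations are descriptions over 6 arrays that share replicate numbers and a common normalisation.

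**Figure D2:**
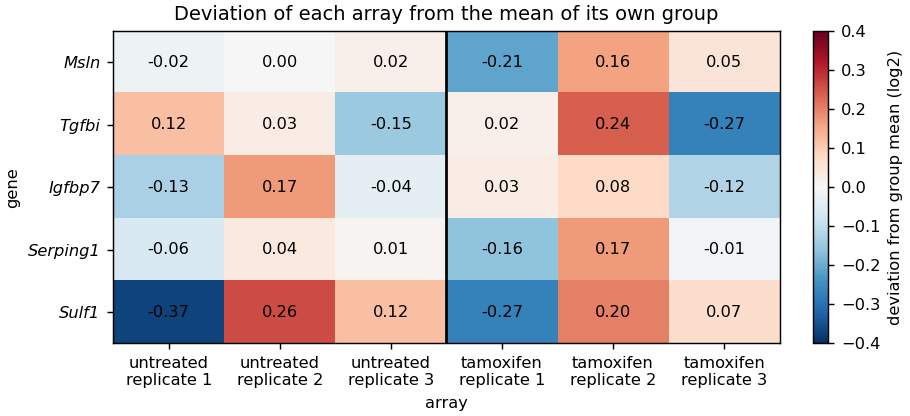
Deviation of each array (x axis) from the mean of its own group for the 5 genes (y axis), in log2 units, with red above and blue below the mean. Replicate 1 is low in both groups for Sulf1 (-0.37 and -0.27) and replicate 3 is low in both for Tgfbi (-0.15 and -0.27).

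The genes with the most similar pattern over the 6 arrays were found by Pearson r. Since the groups differ strongly in the 5 genes, a high r mostly reflects the difference between the groups, and 310 to 390 genes had r over 0.95 with a given member. Closest to Msln were Cast, the calpain inhibitor calpastatin (r = 0.9986, log2 change 0.59 ± 0.06, SE), Tnrc6a, a partner of Argonaute in silencing (r = 0.9983, 0.64 ± 0.06), and the calpain Capn7 (r = 0.9982, 0.30 ± 0.06). Tgfbi was followed most closely by Prkag2 (r = 0.9987), Asph (0.998) and Megf11 (0.9969), with log2 changes of 0.25, 0.32 and 0.70. Igfbp7 had Ppp1r37 (r = 0.996), the biotinidase gene Btd (0.9959) and Cacna1a (0.9954) beside it, with log2 changes of 0.42, 0.62 and 0.36. Frmd5 (r = 0.998), Capn7 (0.9969) and the laminin chain Lamc1 (0.9967) were nearest to Serping1, with log2 changes of 0.37, 0.30 and 0.35. Nearest to Sulf1 were Plaat3 (r = 0.9995), the chloride transporter Clcn4 (0.998) and Ubxn8 (0.9975), with log2 changes of 0.15, 0.35 and 0.36. The changes of these genes, 0.15 to 0.70, were smaller than those of the members, which were picked for their large rises.

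Partners and relatives of the 5 proteins were taken from 8 lists, of which 264 of 282 genes were measured beside the members. At a limma adjusted p under 0.05, 22 of the 264 rose and 5 fell, or 10.2%, against 7.78% of all 19938 genes, of which 3.79% rose and 3.99% fell. The median log2 change was 0.07, against 0.01 over all genes. With the replicate number as a block 47 rose and 15 fell, against 17.4% of all genes called. Single arrays moved the count: leaving out untreated replicate 2 or 3 gave 10 and 14 called genes, and leaving out tamoxifen replicate 2 or 3 gave 8 and 14.

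**Figure D3:**
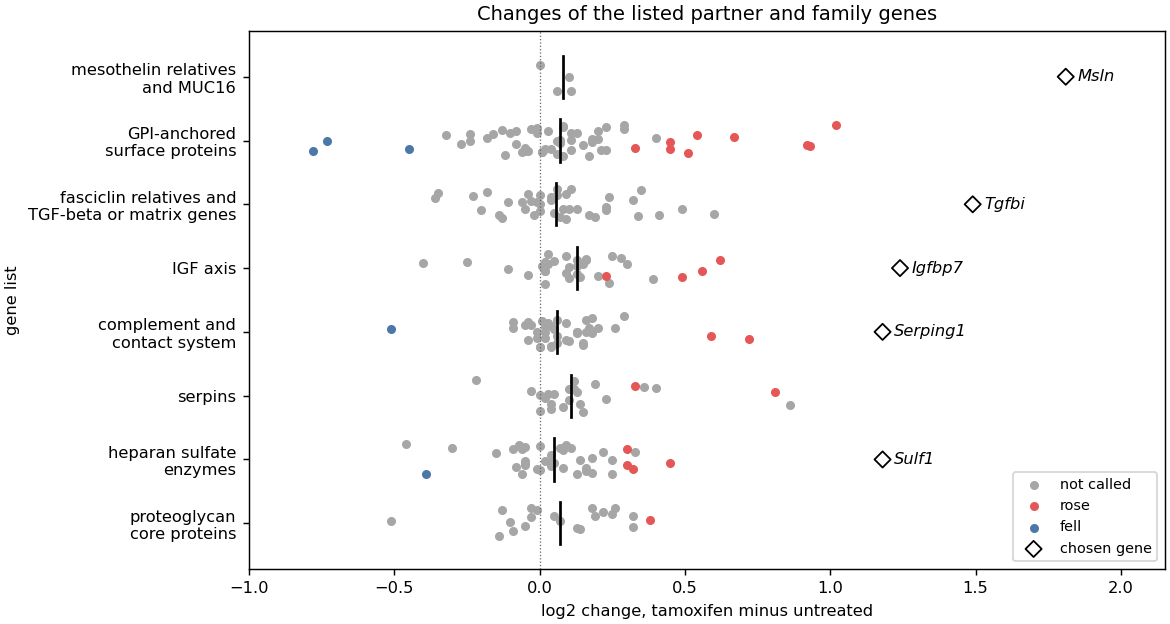
Log2 change, tamoxifen minus untreated (x axis), of each measured gene of the 8 lists (y axis); red and blue points rose and fell at a limma adjusted p under 0.05, grey points were not called, black bars are list medians and open diamonds are the chosen genes. List medians lie between 0.05 and 0.13. The 5 chosen genes lie beyond every listed partner, the highest of which is Cd109 at 1.02, but they were picked for their large rises.

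The partner and the close relatives of mesothelin had small differences. Of Muc16, Mslnl, Otoa and Strc, limma called 0, and 0 had an unadjusted p under 0.05. The block and every fit without 1 array also called 0. These genes were among the dimmest 40% of genes, where changes are compressed. Muc16 had log2 values of 4.45, 4.55 and 4.44 untreated and 4.62, 4.60 and 4.55 with tamoxifen, a change of 0.11 ± 0.06 (SE, adjusted p = 0.321), and Mslnl changed by 0.10 ± 0.06 (adjusted p = 0.341).

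Other genes listed as GPI-anchored surface proteins moved in both directions. Of 60 measured, 9 rose and 3 fell, 20% against 7.78% of all genes, and the median was 0.07. With the block 11 rose and 7 fell, against 17.4% of all genes. Reck, an inhibitor of matrix metalloproteinases, had log2 values of 9.28, 9.29 and 9.34 untreated and 10.20, 10.20 and 10.28 with tamoxifen, a rise of 0.93 ± 0.06 (SE, adjusted p = 0.000403). Cd109, a TGF-beta co-receptor, rose by 1.02 ± 0.19 (adjusted p = 0.0178), with tamoxifen replicate 2 at 8.71 well above 7.86 and 8.0 on the other tamoxifen arrays. Ceacam1, a transmembrane cell adhesion protein that the list counted although it has no GPI anchor, rose by 0.92 ± 0.14 (adjusted p = 0.00889).
The urokinase receptor Plaur had log2 values of 8.67, 9.05 and 8.69 untreated and 8.06, 8.11 and 8.04 with tamoxifen, and fell by 0.73 ± 0.10 (SE, adjusted p = 0.00664). Nt5e, the ectoenzyme that makes adenosine from AMP, fell by 0.78 ± 0.15 (adjusted p = 0.0208) and the carboxypeptidase Cpm by 0.45 ± 0.09 (adjusted p = 0.0187). Reck, Ceacam1 and Plaur were called whichever array was left out; Cd109 was not called without untreated replicate 2 or 3, Cpm without either of these or tamoxifen replicate 2, and Nt5e without either of these or tamoxifen replicate 3. Called genes of the list numbered 5 and 6 when untreated replicate 2 or 3 was left out, and 5 when tamoxifen replicate 2 was.

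None of the 40 measured fasciclin relatives and TGF-beta-induced or matrix genes passed the limma threshold in the main fit, which has no replicate block. The unadjusted p was under 0.05 for 9 higher and 3 lower genes of the 40, against 24.5% of all genes, and the median was 0.05. With the block 8 rose and 1 fell, against 17.4% of all genes, and without tamoxifen replicate 1 there were 3 calls and without untreated replicate 1 there was 1. Periostin (Postn), the closest relative of TGFBI, had log2 values of 5.15, 5.13 and 5.09 untreated and 5.14, 5.05 and 5.12 with tamoxifen, a change of -0.02 ± 0.06 (SE, adjusted p = 0.872). Postn was among the dimmest 40% of genes, where changes are compressed. The smallest p-values were those of the collagen cross-linking enzyme Lox (0.24 ± 0.07, adjusted p = 0.0608, or 0.0378 with the block) and of Ltbp2, a latent TGF-beta-binding protein family member (0.23 ± 0.07, adjusted p = 0.0801, or 0.0254 with the block). The ligand Tgfb1 had a value of -0.33 ± 0.11 (adjusted p = 0.0967), which passed with the block (0.0135). Ccn2 and Ccn1, picked after their values were seen, had the largest differences of the list, 0.60 ± 0.20 (adjusted p = 0.101, or 0.00252 with the block) and 0.49 ± 0.19 (adjusted p = 0.154, or 0.0226 with the block), with tamoxifen replicate 2 highest in both.

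In the insulin-like growth factor (IGF) axis 4 of 33 measured genes rose and 0 fell, 12.1% against 7.78% of all genes, and 0 were lower at an unadjusted p under 0.05. The median was 0.13, and 8 rose and 1 fell with the block, against 17.4% of all genes called in that fit. Igf1, the ligand, had log2 values of 6.63, 6.42 and 6.58 untreated and 7.15, 7.06 and 7.11 with tamoxifen, and rose by 0.56 ± 0.07 (SE, adjusted p = 0.00527) whichever array was left out. Igfbpl1, a relative of IGFBP7, rose by 0.62 ± 0.15 (adjusted p = 0.0412) and the receptor substrate Irs2 by 0.49 ± 0.12 (adjusted p = 0.0396); both were called only without tamoxifen replicate 1 among the 6 fits that left out an array. The list had 1 called gene in each of the other 5 of these fits, without untreated replicate 1, 2 or 3 or tamoxifen replicate 2 or 3.
The fetal growth factor Igf2 went with the replicate number more than with the treatment. Its log2 values were 7.74, 8.11 and 9.26 untreated and 7.89, 8.64 and 9.77 with tamoxifen, so replicate 3 was far above replicate 1 in both groups and the groups overlapped. The change was 0.39 ± 0.49 (SE, adjusted p = 0.669), and the adjusted p was 0.0145 with the replicate block. The receptor Igf1r had a value of 0.15 ± 0.07 (adjusted p = 0.249). The classical binding proteins Igfbp1 to Igfbp6 were not called without the block, and Igfbp2 had the widest difference of them at -0.40 ± 0.20 (adjusted p = 0.262). Igfbp2 passed with the block (0.0062), with pair differences of -0.55, -0.36 and -0.29, and so did Igfbp4 (0.28 ± 0.21, adjusted p = 0.473, or 0.0154 with the block), with 0.31, 0.21 and 0.31. These 6 were singled out after their values were seen.

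Of 41 measured complement and contact system genes, 2 rose and 1 fell, 7.32% against 7.78% of all genes, and the median was 0.06. With the block the count was also 2 and 1, against 17.4% of all genes. Properdin (Cfp), which stabilises the alternative pathway convertase, had log2 values of 8.40, 8.47 and 8.36 untreated and 9.05, 9.31 and 9.03 with tamoxifen, a rise of 0.72 ± 0.09 (SE, adjusted p = 0.00413). Kininogen (Kng1), the source of bradykinin, rose by 0.59 ± 0.06 (adjusted p = 0.00322), and C8g, a chain of the membrane attack complex, fell by 0.51 ± 0.10 (adjusted p = 0.0221). Cfp and Kng1 were called whichever array was left out, and C8g was not called without untreated replicate 2 or tamoxifen replicate 2 or 3.
The measured proteases that C1 inhibitor blocks were not called. C1ra had a value of 0.18 ± 0.07 (log2, SE, adjusted p = 0.156), C1s1 of -0.01 ± 0.07 (adjusted p = 0.951), C1s2 of 0.09 ± 0.14 (adjusted p = 0.741) and F12, coagulation factor XII, of 0.17 ± 0.10 (adjusted p = 0.332). Further proteases of the list that C1 inhibitor can block, taken up after their values were seen, were Masp1 at 0.26 ± 0.08 (adjusted p = 0.0944), F11 at 0.20 ± 0.08 (adjusted p = 0.165), Plg at 0.13 ± 0.06 (adjusted p = 0.218) and Masp2 at 0.00 ± 0.10 (adjusted p = 0.99). Masp1 had the largest difference of these 8. All of them but Masp2 were among the dimmest 40% of genes, where changes are compressed.

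Among 24 measured serpins other than Serping1, 2 rose and 0 fell, 8.33% against 7.78% of all genes, with a median of 0.11. With the block 6 rose and 1 fell, against 17.4% of all genes called in that fit. Serpinf1, which encodes the antiangiogenic factor PEDF, had log2 values of 7.91, 8.55 and 8.23 untreated and 8.99, 9.22 and 8.91 with tamoxifen, a rise of 0.81 ± 0.15 (SE, adjusted p = 0.0169) that was not called without tamoxifen replicate 2. The protease inhibitor Serpinb1a rose by 0.33 ± 0.07 (adjusted p = 0.0268), and was not called without untreated replicate 1 or 2 or tamoxifen replicate 2 or 3. The list had 0 called genes without tamoxifen replicate 2, 1 without untreated replicate 1 or 2 or tamoxifen replicate 3, and 3 in both remaining fits.

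Of 41 measured genes listed for the building, modification or breakdown of heparan sulfate, 4 rose and 1 fell, 12.2% against 7.78% of all genes. The median was 0.05, and not every listed gene is an enzyme of heparan sulfate itself. Sulf2, the other sulfatase of the SULF family, had log2 values of 11.77, 11.95 and 11.99 untreated and 12.12, 12.27 and 12.27 with tamoxifen, and rose by 0.32 ± 0.08 (SE, adjusted p = 0.0447). As in Sulf1, replicate 1 was lowest in both groups. Xylt1, which starts the sugar chains, rose by 0.45 ± 0.10 (adjusted p = 0.0268), the sulfotransferase Hs2st1 by 0.30 ± 0.07 (adjusted p = 0.0313), and the glycosyltransferase Extl1 fell by 0.39 ± 0.09 (adjusted p = 0.0299). These calls lay near the threshold. With 1 array left out the log2 change was 0.25 to 0.37 for Sulf2, 0.39 to 0.56 for Xylt1, 0.26 to 0.33 for Hs2st1 and -0.47 to -0.33 for Extl1. Sulf2, Xylt1 and Hs2st1 were called in 1 of these 6 fits each and Extl1 in 2. The list had 0 called genes without untreated replicate 2 or 3 or tamoxifen replicate 2, 1 without untreated replicate 1 or tamoxifen replicate 3, and 5 without tamoxifen replicate 1. With the block 7 rose and 3 fell, against 17.4% of all genes called in that fit.
Of the 21 genes listed as core proteins for such chains, Col18a1, the precursor of endostatin, rose by 0.38 ± 0.06 (SE, adjusted p = 0.0108) and 0 fell, 4.76% against 7.78% of all genes. With the block 5 of the 21 rose and 1 fell, against 17.4% of all genes called in that fit. Col18a1 was not called without tamoxifen replicate 2, which left 0 called core proteins, and without untreated replicate 1 there were 2.

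**Figure D4:**
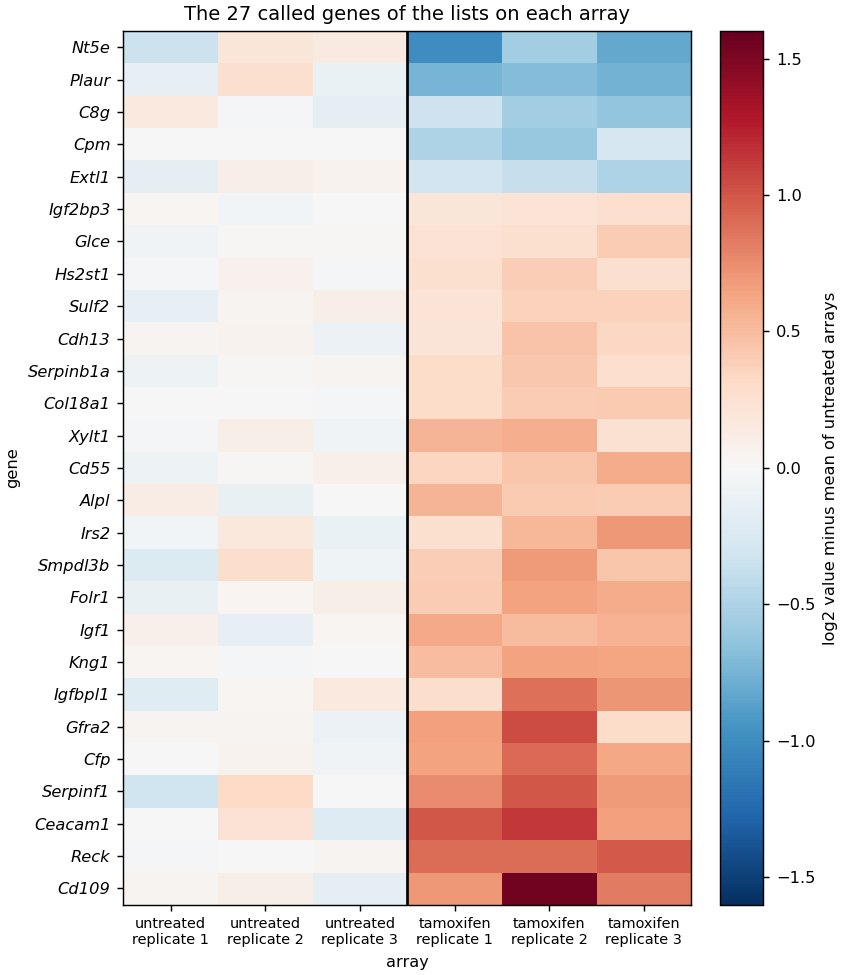
Log2 value of each array (x axis) minus the mean of the 3 untreated arrays for the 27 called genes of the lists (y axis), ordered by change, with red above and blue below that mean. Cd109 is highest on tamoxifen replicate 2, and Reck is even across the tamoxifen arrays at 10.20 to 10.28 against 9.28 to 9.34.

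Markers of other cell types were measured beside these changes, since Tgfbi, Igfbp7, Serping1 and Sulf1 are also transcribed in fibroblasts and Msln in mesothelium. Of 18 fibroblast or feeder markers 17 were measured and limma called 0; its unadjusted p was under 0.05 for 3 higher markers and 1 lower marker, against 24.5% of all genes, and with the block 4 of the 17 rose and 1 fell, against 17.4%. Their summed unlogged signal was 1788 to 2010 on the untreated and 1980 to 2069 on the tamoxifen arrays. Col1a1 and Col3a1, defining collagens of fibroblasts, changed by 0.20 ± 0.09 and 0.12 ± 0.07 on the log2 scale (SE, adjusted p = 0.223 and 0.333). Among 10 mesothelial markers limma called 1, or 10%, against 7.78% of all genes: Lrrn4 rose by 0.48 ± 0.06 (SE, adjusted p = 0.0061). Its unadjusted p was under 0.05 for 2 higher and 2 lower mesothelial markers, against 24.5% of all genes. With the block 2 of the 10 rose and 1 fell, against 17.4%. Changes in this list ran from -0.57 to 0.48. The defining marker Upk3b had a value of -0.19 ± 0.07 (adjusted p = 0.129), and the summed signal of the mesothelial list was 2877 to 4017 untreated and 2881 to 5210 with tamoxifen. RMA values have no zero, so whether a marker was absent was not tested.
The endothelial list was the most clearly separated: its mean log2 value was 7.42 to 7.44 untreated and 7.61 to 7.62 with tamoxifen. Of its 8 markers the angiopoietin receptor Tek rose by 0.88 ± 0.15 (SE, adjusted p = 0.0133) and Kdr, also the called gene of the mesoderm list, by 0.26 ± 0.07 (adjusted p = 0.0468). That is 25% called, against 7.78% of all genes. Limma's unadjusted p was under 0.05 for 2 higher endothelial markers and 1 lower one, against 24.5% of all genes. The changes in the list ran from -0.18 to 0.88. Without Tek the range was 7.2 to 7.27 untreated and 7.3 to 7.34 with tamoxifen, and the endothelial cadherin Cdh5 had a value of 0.16 ± 0.10 (adjusted p = 0.40). Lrrn4, Tek, Kdr, Cdh5, Upk3b and both collagens were singled out after their values were seen. No gene was called in the lists for primitive and visceral endoderm, parietal endoderm, trophoblast, neural cells or macrophages by limma without the block. Its unadjusted p was under 0.05 for 4 of 15, 3 of 9, 3 of 8, 3 of 6 and 2 of 8 measured markers of these lists, against 24.5% of all genes. With the block, 1 rose and 2 fell in the first list, 2 and 1 in parietal endoderm and 1 and 2 in trophoblast. The neural list had 2 and 0 and the macrophage list 0 and 1, against 17.4% of all genes called in that fit. The part of such cells in the changes of the 5 genes was not tested.

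**Figure D5:**
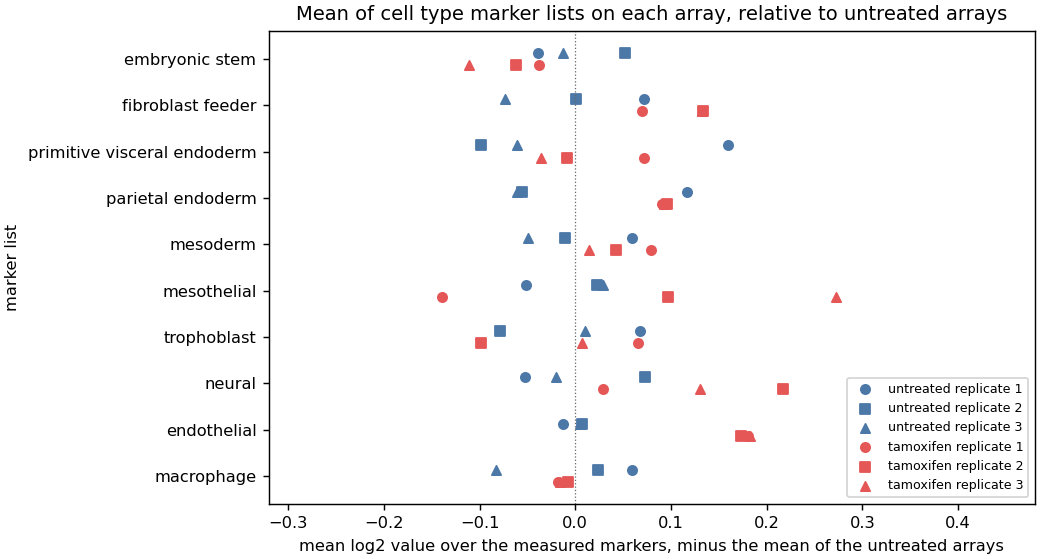
Mean log2 value over the measured markers of each cell type (y axis), minus the mean of the untreated arrays (x axis), for each array. Tamoxifen arrays stand apart in the endothelial list, at 0.17 to 0.18, and overlap the untreated arrays in the fibroblast and mesothelial lists.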

How the data were processed

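RNA from 3 untreated and 3 tamoxifen-treated samples was measured on 1 array each. The deposited log2 values are RMA summaries; the authors used Affymetrix Expression Console 1.2, as the submitters' processing notes record. That scale was inferred from their range (3.18 to 14.6, array medians 7.19 to 7.26). RMA quantile-normalises the arrays, so a shift shared by most transcripts would not show, and it compresses changes of dim probe sets. The build behind the array's annotation is not given in the sources used here.

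Of 35556 probe sets, 21789 had 1 gene symbol, 1621 had several and 12146 had none listed. The brightest probe set of each gene was kept, which gave 19938 genes. The test was limma's moderated one (version 3.58.1, R 4.3.3; lmFit, then eBayes; two-sided; no filter), with Benjamini-Hochberg adjustment over all genes and calls under 0.05; the code was checked on simulated arrays. Errors of changes are limma's SE. No test was made of the 5 genes, whose contrast chose them. The members and lists were chosen with earlier results of these data known. Named genes are the members, up to 3 called genes per direction and list (or the 2 with the smallest p), the measured direct partners of the 5 proteins, and the 3 genes with the highest Pearson r to each member over 6 arrays, without placeholder symbols; exceptions are named as such. Promoter sequences are RefSeq's for GRCm38.p6.

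Arrays with the same replicate number deviated together from their group means (r over all genes 0.356, 0.345 and 0.389). Equal numbers were thus read as pairs, from the data and not from the labels. The main fit left this pairing out, and a replicate block was run as an alternative. The main fit called 1552 genes and the block 3472, so a gene not called in the main fit may pass with the block. Other alternatives were median centring, renewed quantile normalisation, cyclic loess, averaging a gene's probe sets, dropping the dimmest 40% of genes, a trended robust prior, stricter thresholds, a test over every probe set, array weights and leaving out each array. Precision is limited by the small number of arrays.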

Additional observations from a re-analysis of the deposited data

How the results depend on the processing

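The log2 changes of the 5 genes moved by less than the SD between replicates under all 15 alternatives, with ranges of 1.73 to 1.91 for Msln, 1.37 to 1.62 for Tgfbi, 1.18 to 1.33 for Igfbp7, 1.10 to 1.26 for Serping1 and 0.99 to 1.32 for Sulf1. Several alternatives could not move these changes. Averaging probe sets could not, since each gene had 1 probe set. The replicate block, the trended robust prior, the test over every probe set and dropping dim genes leave the difference of the group means as it is. With groups this small, leaving out 1 array cannot shift a change by as much as the SD between replicates. Those fits thus give ranges but could not fail this comparison. Counts of calls moved more. Over all genes 1552 were called, against 3472 with the replicate block, 2511 with array weights, 336 over all probe sets, 276 at an adjusted p under 0.01 and 442 with a log2 change of at least 0.5; leaving out 1 array gave 355 to 1580. Of the partner and family genes 27 were called, against 62 with the replicate block, 42 with array weights, 6 over all probe sets, 6 at an adjusted p under 0.01 and 14 with a log2 change of at least 0.5; leaving out 1 array gave 8 to 31. Of the 19 called genes that the lists name, 6 were called in all fits without 1 array, 6 over all probe sets and 19 with the replicate block, which changed none of these calls, and 0 changed direction under any alternative run. Some genes not called in the main fit changed sign when 1 array was left out. Their ranges were -0.06 to 0.05 for C1s1, -0.01 to 0.25 for C1s2, -0.11 to 0.84 for Igf2 and -0.04 to 0.01 for Postn. Igf2 stood at 0.39 ± 0.49 (log2, SE) in the main fit, with replicates far apart. The causes were not tested. Renewed normalisations moved the median change of all genes by at most 0.013. Detection limits were not available, since RMA carries no detection call.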
